A study of Mus musculus with 312 samples.

Results

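The genes described here encode the contractile apparatus of smooth muscle: the actins Acta2 and Actg2, the myosin heavy chain Myh11, the myosin light chain kinase Mylk, the regulatory light chain Myl9, calponin (Cnn1), transgelin (Tagln), the tropomyosins Tpm1 and Tpm2 and caldesmon (Cald1). They were taken as a fixed list by gene symbol, drawn up with earlier results of these data known, and are 10 of the 25136 genes used. All 10 were present in the count files and all 10 passed the limit of 50 CPM (read pairs of a gene scaled to 1000000 assigned read pairs of its cell), as a mean over cells, that was set for comparing stages.

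RNA was sequenced from 312 single mammary gland cells of FVB/NJ mice, each cell captured in its own chamber on the Fluidigm C1 and each labelled with a basal cell source. Of these, 237 cells came from adult mice and 75 from pregnant mice, with neither the age in weeks nor the day of pregnancy in the labels, and no group received a treatment. Adult titles fall into 112 cells with the mark (2), called marked cells below, and 125 unmarked cells, and the labels do not explain the mark. The study's own account lists a larger number of pregnancy cells captured this way, as total epithelium, and no pregnancy set sorted as basal. The pregnancy cells here could not be matched to that account, so that their being sorted as basal rests on the labels.

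Cells entered the analysis if they held 50000 or more assigned reads and 1000 or more genes, not counting mitochondrial and ribosomal protein genes. This kept 81 of 112 marked adult cells, 58 of 125 unmarked adult cells and 71 of 75 pregnancy cells, with medians of 174910, 101320.5 and 230645 assigned reads. Each sample is 1 cell and no animal is named, so each group stands for 1 sample. No test was possible. Intervals are exact 95% intervals (Clopper-Pearson for shares, Poisson for sums of reads) that treat reads or cells as independent draws. Reads copied by PCR are counted separately, and cells of a set share a preparation. The intervals are therefore too narrow as measures of uncertainty, and they do not hold the spread between animals. All pregnancy titles have the same form, so stage and run of the instrument cannot be told apart. At least 3 of 8 basal genes outside the contractile list (Krt5, Krt14, Krt17, Trp63, Cxcl14, Snai2, Id4, Sparc) reached 100 CPM in 95.1% of marked, 87.9% of unmarked and 95.8% of pregnancy cells. At least 3 of the 8 genes of a luminal, pericyte, fibroblast, immune, endothelial or Schwann cell list did so in 6, 10 and 4 cells. The members' share of reads, detection, ratios and median correlations and the family shares below were also computed without these cells, but the split by cell cycle genes was not.

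Smooth muscle contracts when calcium-bound calmodulin activates myosin light chain kinase, which phosphorylates the regulatory light chain and lets the myosin heavy chain pull on actin filaments. Tropomyosins lie along those filaments, while calponin, caldesmon and transgelin bind them and regulate or stabilise them. Mammary basal cells are epithelial cells that carry this machinery, hence the name myoepithelial, and they squeeze milk from the alveoli when oxytocin is released. Many contractile genes are known targets of serum response factor (SRF), which binds a DNA element called the CArG box, made of CC, a core of 6 bases that are each A or T, and GG.

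Promoter sequences, from 250 bases before to 50 bases after the transcription start, came from RefSeq on GRCm38.p6 and were found for 7 of the 10 genes (8 promoters, because Cald1 has 2). Actg2, Myh11 and Tagln had none in the table. The starts are annotated ones that can lie inside the gene spans given below, and positions count from them. The promoters of Acta2 and Myl9 are shown because they were the members whose window held a CArG box or a close relative of it. Capitals mark a CArG box with at most 1 core base other than A or T.
Acta2 (chr19:34255324-34255623, minus strand): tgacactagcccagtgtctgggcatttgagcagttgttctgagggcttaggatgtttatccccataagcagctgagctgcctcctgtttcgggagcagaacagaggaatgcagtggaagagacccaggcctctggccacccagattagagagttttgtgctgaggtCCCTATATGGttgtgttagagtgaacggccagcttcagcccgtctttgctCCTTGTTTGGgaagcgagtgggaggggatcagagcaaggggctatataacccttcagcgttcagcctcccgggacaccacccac
Myl9 (chr2:156775214-156775513, plus strand): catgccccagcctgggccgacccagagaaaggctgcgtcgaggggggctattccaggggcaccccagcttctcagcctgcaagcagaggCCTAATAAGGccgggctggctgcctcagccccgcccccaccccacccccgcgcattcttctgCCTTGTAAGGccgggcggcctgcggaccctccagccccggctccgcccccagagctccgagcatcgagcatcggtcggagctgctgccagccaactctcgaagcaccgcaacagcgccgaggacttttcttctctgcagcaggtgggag
The Myl9 window held 1 full CArG box, CCTAATAAGG, the upstream one of the marked elements, and a relative with 1 other core base, CCTTGTAAGG, starting at position −99 (the last base before the transcription start being −1). In Acta2 both marked elements, CCCTATATGG starting at −84 and CCTTGTTTGG starting at −34, had 1 other core base. A full box occurred in 1.63% of 32851 promoters of this length, and a box with at most 1 other core base in 9.98%. Both patterns read the same on either strand. The shorter motif CATTCC, the MCAT element, searched on both strands, was found in 4 of the 7 members with a promoter (Acta2, Mylk, Tpm1 and Cald1), against 14.7% of all promoters, and the match in Acta2 did not overlap the marked elements. In the list of nonmuscle relatives of the members, described below, 3 of 12 genes with a promoter (Actg1, Myl6 and Cnn2) held a full box. Of these, Myl6 encodes a light chain of smooth as well as nonmuscle myosin.

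Members of these families are close in sequence, which bears on how reads were assigned. No exact stretch of 75 bases was shared between Acta2 and Actg2, and the longest coding run common to both had 29 bases, in exon 7 of Acta2 (chr19:34245055-34245083, minus strand) and exon 7 of Actg2 (chr6:83519911-83519939, minus strand). The longest run of Acta2 shared with the cytoplasmic actin Actb had 47 bases, in exon 8 of Acta2 (chr19:34243351-34243397, minus strand). Both runs are printed to show how far the transcripts match.
Acta2 and Actg2: gacatcaaggagaagctgtgctatgtagc
Acta2 and Actb: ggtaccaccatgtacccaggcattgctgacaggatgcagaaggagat
Myh11 shared at most 65 bases with nonmuscle Myh9, and Tpm1 at most 37 with Tpm2. Against all other annotated transcripts, 8 of the 10 members had no shared stretch of 75 bases. Mylk shared 3.55% of its stretches with 2 antisense transcripts, E130310I04Rik and Gm21691. Tagln shared 53.3%, of which the antisense transcript Gm48529 accounted for 51.6% of all stretches and the neighbouring gene Pcsk7 for 1.71%. No source used here says whether strand entered the counting, so reads of Tagln and its antisense partner are not told apart and its values are uncertain to that extent.

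The 10 genes together were abundant. They took 4.022% of assigned reads in marked adult cells (interval 4.012 to 4.032%), 3.133% in unmarked adult cells (3.120 to 3.146%) and 5.803% in pregnancy cells (5.792 to 5.815%). Over both adult sets the share was 3.738%, from 824094 of 22044592 reads, against 951089 of 16388692 reads in pregnancy. Per cell, the share ran from 0.209% through a median of 3.84% to 9.49% in marked cells. In unmarked cells it ran from 0.0214% through 2.76% to 8.05%, and in pregnancy cells from 0.183% through 4.90% to 17.9%. The sets overlapped over most of their range, and the pregnancy set extended furthest upward.

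The cells with the highest share in each set differed in what made it up. Pregnancy cell 53 had 110742 CPM of Acta2, which was 61.8% of its member reads, and a mitochondrial share of 7.44%. Acta2 and Tagln made up 48.0% and 26.1% of the member reads of marked cell 26. In unmarked cell 174, by contrast, Tagln contributed 53.1% and Cnn1 27.7% of member reads, Acta2 only 7.00%, and Myl9 stood at 59.0 CPM. A high summed share was therefore reached through different genes in different cells.

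Counting a gene as detected at 100 CPM, at least 8 of the 10 members were detected in 71 of 81 marked cells (87.7%, interval 78.5 to 93.9%), 46 of 58 unmarked cells (79.3%, 66.6 to 88.8%) and 70 of 71 pregnancy cells (98.6%, 92.4 to 100.0%). Over all 139 adult cells the share was 84.2% (77.0 to 89.8%). All 10 members were detected in 42 of 139 adult cells (30.2%, 22.7 to 38.6%) and in 50 of 71 pregnancy cells (70.4%, 58.4 to 80.7%). With Actg2 set aside, all other 9 members were detected in 94 of 139 adult cells (67.6%, 59.2 to 75.3%) and in 69 of 71 pregnancy cells (97.2%, 90.2 to 99.7%), so most of the gap remained without it. Among cells that lacked a single member, Actg2 was the one most often absent: of 57 adult cells with exactly 9 members, 52 lacked Actg2, 2 lacked Mylk and 1 each lacked Myl9, Cnn1 and Cald1, and all 19 such pregnancy cells lacked Actg2. The sets differ in depth as given above. When every cell was thinned to 50000 reads and 1 read counted as detection, at least 8 members were found in 92.1% of adult and 100% of pregnancy cells.

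**Figure D1:**
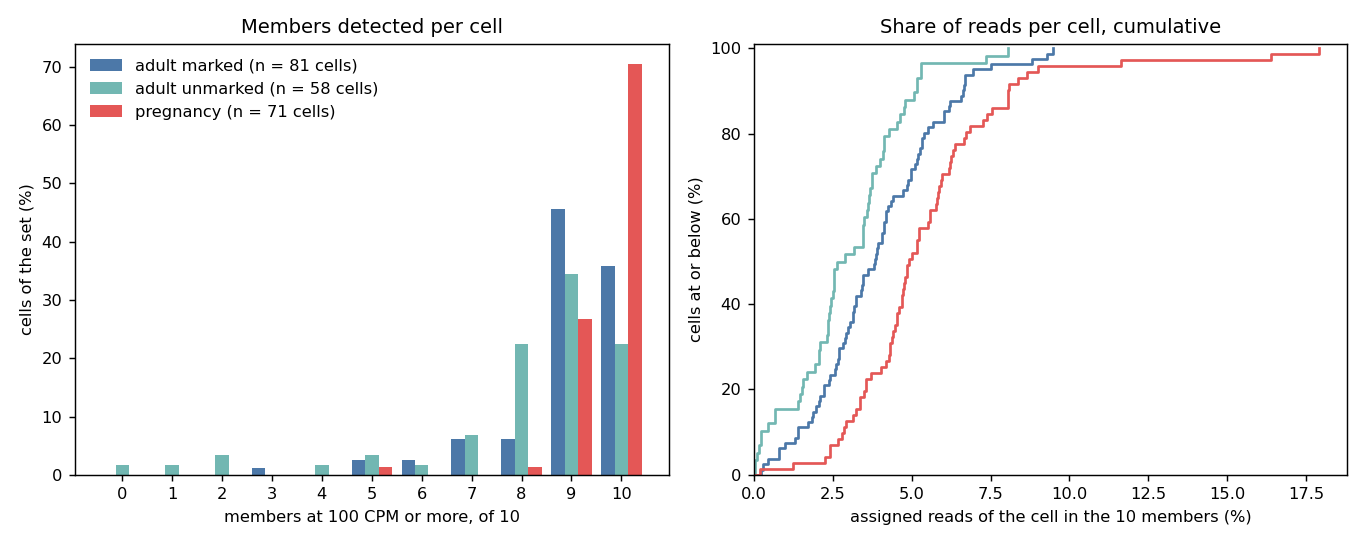
Left, percentage of cells in each set (vertical axis) by the number of the 10 contractile genes at 100 CPM or more (horizontal axis), for 81 marked adult, 58 unmarked adult and 71 pregnancy cells. Right, cumulative percentage of cells against the percentage of a cell's assigned reads in the 10 genes. Pregnancy cells peak at 10 genes, marked cells at 9, and 4 unmarked cells carry at most 2. The pregnancy curve lies to the right of both adult curves over most of its length, with a median of 4.90%.

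In 11 cells at most 5 members were detected, and these were singled out after their values were seen. The lowest, unmarked cell 130, had no member at 100 CPM, with Acta2 at 20.9 CPM, and carried 7 of the 8 luminal genes. Unmarked cell 157 had 1 member and 7 of 8 fibroblast genes, unmarked cell 126 had 2 members and 3 Schwann cell genes, and unmarked cell 169 had 2 members and 3 endothelial genes. Marked cell 19 had 3 members and 6 of 8 immune genes. The only pregnancy cell among them, cell 71, had 5 members, with Acta2 at 901 CPM, beside 5 luminal and 5 cell cycle genes and a mitochondrial share of 56.5%. These 6 cells each carried at least 3 genes of another lineage and at most 1 of the other basal genes. The remaining 5 did not carry another lineage: unmarked cell 120, with 4 members, had a mitochondrial share of 79.5%, and marked cells 95 and 96 and unmarked cells 164 and 171 had 5 members and 3 to 5 other basal genes each. In unmarked cell 164 the loss was uneven, with Acta2 at 11227 CPM and Tagln at 5008 CPM beside Myl9 at 18.6 CPM and no Mylk read.

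Levels of single members are given first for the filament proteins. Acta2 (chr19:34240336-34255585, minus strand, 1780 exon bases) ran from 15.4 through a median of 11154 to 45571 CPM in marked cells, from 20.9 through 9092 to 36131 CPM in unmarked cells, and from 901 through 16422 to 110742 CPM in pregnancy cells. It was detected in 97.8% of adult and 100% of pregnancy cells. The sets overlapped widely, and 55 of 71 pregnancy cells lay above the adult median. Adult cells averaged 12094 ± 9221 CPM (SD over cells, n = 139) and pregnancy cells 20478 ± 16016 CPM (n = 71). The adult sum was 291655 reads (Poisson interval 290597 to 292715), and the pregnancy sum 373453 reads (372256 to 374653).

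Actg2 (chr6:83512909-83536251, minus strand, 1315 exon bases), the actin typical of gut and other visceral smooth muscle, was the sparsest member. It ran from 0 through a median of 20.1 to 5213 CPM in marked cells, from 0 through 10.6 to 1777 CPM in unmarked cells, and from 0 through 400.2 to 7161 CPM in pregnancy cells. No read was found in 48 of 139 adult cells (34.5%) and in 2 of 71 pregnancy cells (2.82%). At 100 CPM it was detected in 48 adult cells (34.5%, interval 26.7 to 43.1%) and 50 pregnancy cells (70.4%, 58.4 to 80.7%), and with 1 read after thinning in 54.0% and 91.5%. The adult mean was 344 ± 782 CPM and the pregnancy mean 1078 ± 1552 CPM, so the spread between cells exceeded the mean in both. Marked cell 28, the highest, held 10.9% of the adult sum.

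The motor proteins were detected at 100 CPM in most cells of each set, least often in unmarked cells, where Myl9 reached that level in 81.0%, Mylk in 86.2% and Myh11 in 87.9% of cells. Myh11 (chr16:14194527-14292188, minus strand, 6632 exon bases), the heavy chain that hydrolyses ATP and moves along actin, had a median of 2573 CPM in marked cells (range 8.08 to 9101), 888 CPM in unmarked cells (0 to 8317) and 4160.5 CPM in pregnancy cells (109 to 13886). Of the pregnancy cells, 61 of 71 lay above the adult median of 1696 CPM. Myl9 (chr2:156775408-156781657, plus strand, 1083 exon bases), the light chain whose phosphorylation switches the motor on, had medians of 1680.1 CPM in marked (0 to 10031), 1073 CPM in unmarked (0 to 9951) and 2631 CPM in pregnancy cells (10.9 to 8303). For Myl9, 54 of 71 pregnancy cells lay above the adult median, while its highest values belonged to adult cells. Mylk (chr16:34745199-35002436, plus strand, 7809 exon bases), the kinase, had medians of 2852 CPM in marked (0 to 22243), 1494 CPM in unmarked (0 to 9261) and 6689 CPM in pregnancy cells (344 to 19943). It separated the stages in the most cells of any member, 65 of 71 pregnancy cells lying above the adult median, although marked cell 35 held the single highest value.

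The filament-binding proteins differed among themselves. Tagln (chr9:45929628-45936058, minus strand, 1586 exon bases), an actin-bundling protein and early smooth muscle marker, had medians of 7358 CPM in marked (47.7 to 29689), 5966 CPM in unmarked (10.2 to 42715) and 5932 CPM in pregnancy cells (147 to 41093). It was the only member below the adult median in most pregnancy cells, with 24 of 71 above it. Cnn1 (chr9:22099221-22109221, plus strand, 1987 exon bases), which restrains the actomyosin motor, had medians of 871 CPM in marked (0 to 6028), 832 CPM in unmarked (0 to 22272) and 1354 CPM in pregnancy cells (36.5 to 6669.5). In unmarked cells its highest values, 22272 and 21689 CPM, stood far above the upper quartile of 1801 CPM. Cald1 (chr6:34598495-34775469, plus strand, 4035 exon bases), which inhibits the motor until calcium releases it, had medians of 1417 CPM in marked (0 to 8109), 1091 CPM in unmarked (0 to 9349) and 2771 CPM in pregnancy cells (213 to 9972). For Cald1, 64 of 71 pregnancy cells lay above the adult median, close to the count for Mylk.

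Tropomyosins were the remaining members. Tpm1 (chr9:67022590-67049672, minus strand, 3279 exon bases) had medians of 1320.1 CPM in marked (47.7 to 5701), 936 CPM in unmarked (11.9 to 4228) and 1631 CPM in pregnancy cells (16.4 to 5619). Tpm2 (chr4:43513726-43523583, minus strand, 2098 exon bases) had medians of 2756 CPM in marked (0 to 7991), 1436 CPM in unmarked (0 to 10647) and 3020.5 CPM in pregnancy cells (32.7 to 22193). Above the adult median lay 49 and 41 of 71 pregnancy cells, respectively, so that for Tpm2 the pregnancy cells straddled it. Both genes make muscle and nonmuscle isoforms by alternative splicing, which gene counts do not resolve. Gene counts do not separate the transcripts of the other members either, among them Mylk with 8 and Cald1 with 18 annotated transcripts.

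**Figure D2:**
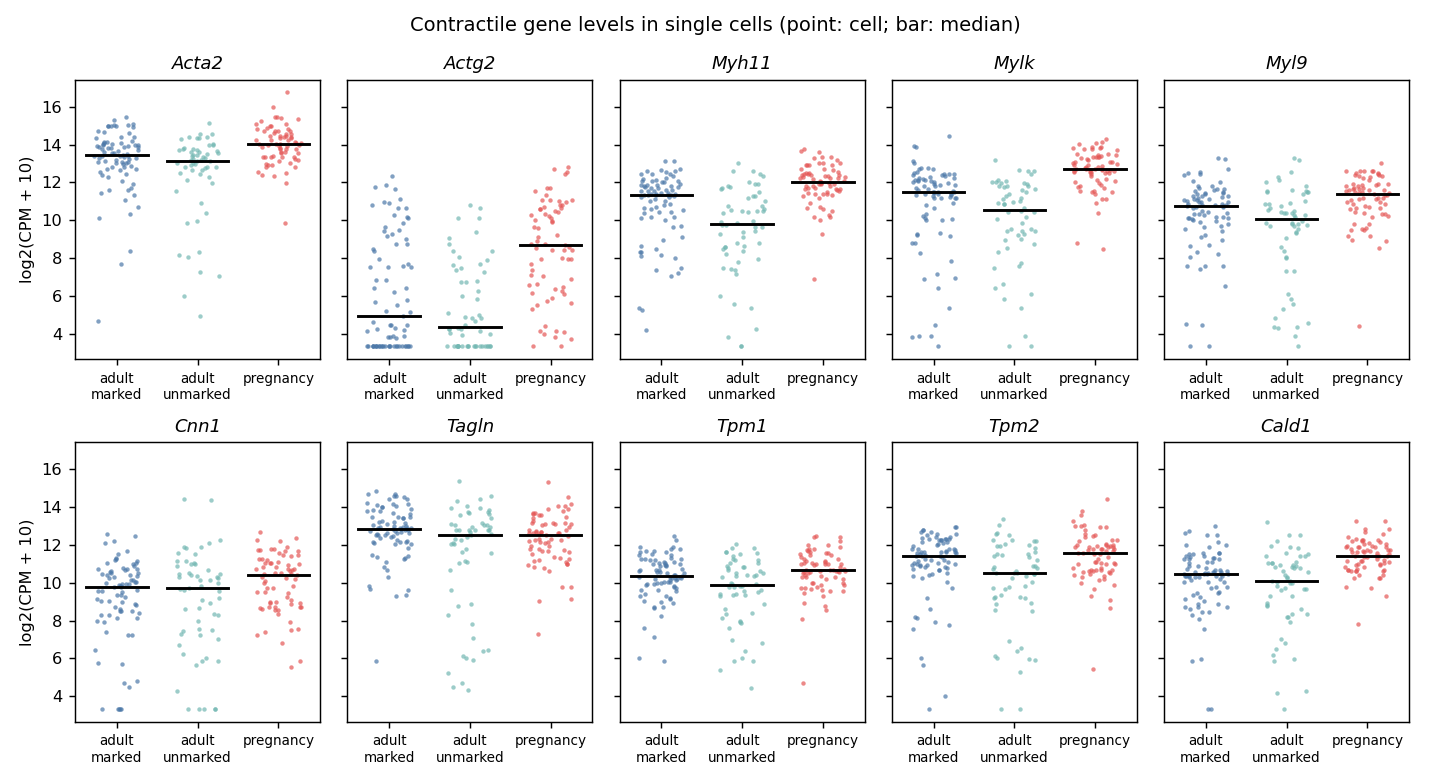
Level of each contractile gene in single cells as log2(CPM + 10), for marked adult, unmarked adult and pregnancy cells; each point is 1 retained cell and the bar is the median of the set. Mylk, Cald1 and Myh11 sit higher in pregnancy with little of the low tail seen in adult cells, Actg2 has many adult cells at 0 and a broad range in pregnancy, and Tagln overlaps between the sets, with medians of 7358, 5966 and 5932 CPM.

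To compare genes with one another, levels were divided by exon length (RPKM, CPM per kilobase of exon). In every set the order of median levels began with Acta2, Tagln, Myl9 and Tpm2 and ended with Actg2. The adult medians of these were 5831, 4468, 1241, 1044 and 11.3 RPKM, and those in pregnancy 9226, 3740.2, 2429, 1439.7 and 304 RPKM. Between these stood Cnn1, Tpm1, Cald1, Mylk and Myh11, at 256 to 433 RPKM in adult and 498 to 857 RPKM in pregnancy cells, and their interquartile ranges overlapped, so neighbours in this middle group do not differ beyond the spread between cells. Tagln and Myl9, and Myl9 and Tpm2, also overlapped in this way in both stages. Acta2 and Tagln did so in adult cells (quartiles of 3470.3 to 8955 and 1958 to 7305 RPKM) but not in pregnancy cells (5883 to 14410.3 and 1926 to 5869.7 RPKM). Mylk had rank 8 of 10 in adult cells and rank 5 in pregnancy. As shares of the summed mean RPKM of the 10 genes, Acta2 took 38.3% in adult and 45.5% in pregnancy cells, and Tagln 30.1% and 18.0%, while Actg2 took 1.47% and 3.25%.

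The stage comparison asks how much of this machinery differs between pregnant and adult glands. For each gene the mean CPM of pregnancy cells was divided by that of adult cells after 10 CPM had been added to both, and the log2 of this ratio was taken, which understates ratios of low genes such as Actg2. The ratio was 1.62 for Actg2, 1.41 for Mylk and 1.09 for Myh11, the 3 members at 1 (2-fold) or more. It was 0.89 for Cald1, 0.76 for Acta2, 0.62 for Myl9, 0.50 for Tpm2 and 0.42 for Tpm1. Cnn1, at 0.17, and Tagln, at −0.23, stood lowest. Thus 3 of 10 members reached 1, where 15.6% did so of the 4548 genes that averaged 50 CPM or more in adult or pregnancy cells, and none reached −1, against 11.6%. The members' median was 0.69 and 9 of 10 were above 0, where the median of all 4548 genes was 0.05 and 52.0% were above 0.

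Set against each adult set on its own, 8 members kept a ratio above 0. Of the 4548 genes, 54.6% were above 0 over marked cells and 54.6% over unmarked cells. The ratio over marked and over unmarked cells was 1.18 and 2.62 for Actg2, 1.14 and 1.88 for Mylk, and 0.82 and 1.56 for Myh11. For Cald1 it was 0.82 and 0.98, the narrowest gap of the 4 highest members. Cnn1 changed sign, at 0.50 over marked and −0.20 over unmarked cells, and Tagln stood at −0.37 and −0.01. Both values over unmarked cells rest on unmarked cells 163 and 174, which held 41.0% of the summed Cnn1 CPM of that set: without them, a choice made after seeing the data, the ratio over unmarked cells was 0.51 for Cnn1 and 0.10 for Tagln. The adult sets themselves were not alike: the ratio of unmarked over marked cells was below 0 for 9 of 10 members, with a median of −0.41, where the median of 4578 genes was 0.03. Of those genes, 51.6% were above 0. The ratio of unmarked over marked cells was −1.44 for Actg2, −0.74 for Mylk and −0.73 for Myh11, and 0.70 for Cnn1. The value of Cnn1 came from the same 2 cells: without them it was −0.01, with means of 1132 CPM in unmarked and 1138 CPM in marked cells, and its median was slightly lower in unmarked than in marked cells (832 and 871 CPM). Without the cells that carried other lineages, the ratio of unmarked over marked cells was again below 0 for 9 of 10 members, with a median of −0.32. The median of all genes was then 0.02. With all retained cells, 1 member (Actg2) reached −1, against 16.7% of the 4578 genes. The unmarked cells had fewer reads, 46.4% of cells retained against 72.3%, and 7 of the 11 cells with at most 5 members, and the part of these in the gap was not tested.

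The sign of the ratio was the same under all 14 alternatives for 8 members, and the exceptions were Cnn1 and Tagln. Myh11 lay at 0.94 to 0.96 with the stricter cell filter (100000 reads and 1500 genes), with DESeq2 size factors or with all genes in the total, and so fell short of 1. Cnn1 ranged from −0.06 with the stricter filter to 0.94 when log2 values were averaged over cells. Tagln was at 0.20 when log2 values were averaged, at 0.01 in cells with a mitochondrial share under 30%, and below 0 otherwise. With averaged log2 values, which weigh the low adult cells more, 6 members reached 1, against 16.5% of all genes under that setting, and with medians over cells 4 members did, against 46.5% of the genes then above the limit. Without the cells that carried other lineages the ratios of Actg2, Mylk and Myh11 were 1.67, 1.38 and 1.02. The median over all genes shifted from 0.05 to −0.14 with all genes in the total and to −0.10 with DESeq2 size factors, and no member changed sign under either.

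**Figure D3:**
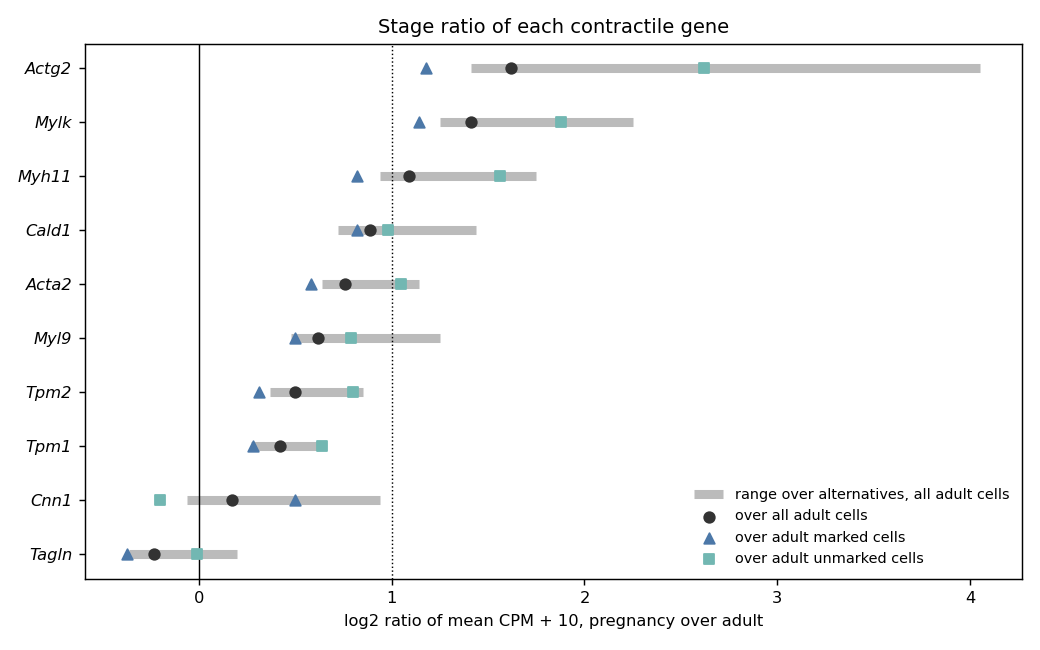
Log2 stage ratio of mean CPM (horizontal axis), for each contractile gene; circles use all adult cells, triangles the marked and squares the unmarked adult cells, and the grey bar spans the alternatives computed with all adult cells. The dotted line marks 1. Actg2 and Mylk lie beyond 1 against each adult set, and the points of Cnn1 fall on both sides of 0.

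Exon length, depth and mitochondrial share moved with these values. The members with at least 4 kb of exon, Mylk, Myh11 and Cald1, were 3 of the 4 with the highest ratios. Over all genes the median ratio was −0.04 for 1260 genes under 2 kb, 0.04 for 1607 genes of 2 to 4 kb and 0.15 for 1681 genes of at least 4 kb, and 1 was reached by 12.6%, 17.5% and 15.9% of them, respectively. Retained pregnancy cells had a median mitochondrial share of 18.4%, against 9.65% in marked and 15.6% in unmarked cells. Over pregnancy cells, the members' score (mean of log2(CPM + 10) over the 10 genes) had a Spearman correlation of −0.46 with that share, against −0.05 and −0.06 over the adult sets. The part of length and depth in the ratios was not tested. With cells under 30% mitochondrial reads, the ratios of Actg2, Mylk and Myh11 were 1.75, 1.36 and 1.18.

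Pericytes and vascular smooth muscle also express most of the contractile genes, so their markers were examined. Of 8 such markers (Rgs5, Cspg4, Pdgfrb, Notch3, Abcc9, Kcnj8, Higd1b and Vtn), at least 3 were at 100 CPM in 1 marked cell and in no unmarked or pregnancy cell. That cell, number 102, had 4 pericyte genes, 9 contractile genes, 3 other basal genes and 4.06% of its reads in the members. The summed level of the list ranged up to 6937 CPM in marked, 255 CPM in unmarked and 4748 CPM in pregnancy cells, with lowest values of 0 in each set and medians of 0, 0 and 3.31 CPM. In each adult set 2 of the 8 markers had no read (Kcnj8 in both, Cspg4 in marked and Higd1b in unmarked cells). Correlated with the members' score over cells, the list gave −0.10, −0.13 and 0.02 in marked, unmarked and pregnancy cells. Of the 8 markers, Vtn alone averaged 50 CPM or more in a stage, at 15.1 CPM over adult and 59.6 CPM over pregnancy cells, a ratio of 1.47. Vtn reached 100 CPM in 0.719% of adult and 1.41% of pregnancy cells, so its means rest on few cells. For the markers under that limit, all given after their values were seen, the ratio was 2.15 for Cspg4 and 0.02 for Kcnj8. It was −1.49 for Notch3, −0.42 for Abcc9, −0.34 for Pdgfrb, −0.17 for Rgs5 and −0.12 for Higd1b. Cspg4, named after its value was seen, was detected at 100 CPM in 0.719% of adult and 8.45% of pregnancy cells. The part of pericyte RNA in the stage ratios was not tested. Genes of striated muscle (Acta1, Actc1, Myh6, Myh7, Myl2, Myl3, Tnnt2, Tnni3, Tnnc1 and Ttn) stayed under a mean of 50 CPM in both stages, all 10 of them.

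Most members belong to families that also have nonmuscle forms, found in nearly every cell type, and the smooth muscle share of each family was taken from mean RPKM. For actins (Acta2 and Actg2 against Actb and Actg1) it was 50.9% in marked, 44.3% in unmarked and 57.1% in pregnancy cells. For myosin heavy chains (Myh11 against Myh9, Myh10 and Myh14) it was 64.3%, 49.5% and 75.0%, the widest range of any family. Per cell, the median share of Myh11 was 63.3%, 39.4% and 74.7%, and Myh11 exceeded its nonmuscle relatives in 58 of 81, 22 of 58 and 66 of 71 cells. Myh9 itself, the main nonmuscle heavy chain, averaged 1646 CPM in adult cells against 1673 CPM in pregnancy cells, a stage ratio of 0.02.

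Among regulatory light chains, tropomyosins and transgelins, the members made up most of the family in every set. Myl9 made up 88.6%, 89.7% and 93.6% of regulatory light chains (against Myl12a and Myl12b). Tpm1 and Tpm2 made up 82.1%, 74.4% and 87.6% of tropomyosins (against Tpm3 and Tpm4), with Tpm3 at a log2 stage ratio of −0.94. Counts of Tpm1 and Tpm2 do not separate their muscle and nonmuscle isoforms, so the share of the muscle isoforms is not known. Tagln made up 94.5%, 93.3% and 96.6% of transgelins, with Tagln2 at −1.05, from 467 to 219.9 CPM. For calponin, Cnn1 made up 59.2%, 62.0% and 59.0% against Cnn2 and Cnn3, but the share in unmarked cells was 49.7% without cells 163 and 174, and the medians per cell were 62.9%, 52.9% and 60.7%. Without the cells that carried other lineages, myosin heavy chain stood at 64.9%, 51.7% and 75.4% and actin at 51.0%, 46.2% and 57.3%. Of the 13 genes listed as nonmuscle relatives, 12 averaged 50 CPM or more in a stage, 0 of these reached 1 and 1 (Tagln2) reached −1, with a median ratio of 0.02. That list includes Myl6, a light chain of both smooth and nonmuscle myosin that entered none of the family shares. Stretches that the other nonmuscle relatives share with each other, or with genes outside the members, were not searched. Their part in the family shares was not tested.

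**Figure D4:**
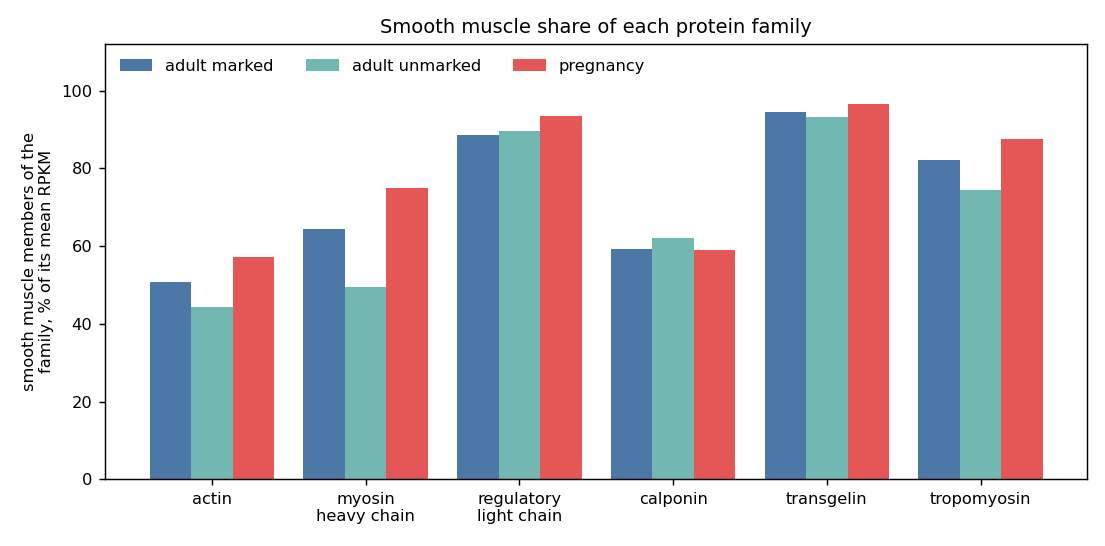
Smooth muscle members of each protein family as a percentage of the family's summed mean RPKM (vertical axis, from 0), for marked adult, unmarked adult and pregnancy cells; bars have no error because each set is 1 sample. Myosin heavy chain spans 49.5 to 75.0%. Calponin lies between 59.0 and 62.0%, where the bar of the unmarked set rests on 2 cells and falls to 49.7% without them.

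The partners of the contractile apparatus were taken from separate lists. Of 14 genes that anchor or cross-link actin filaments, 12 averaged 50 CPM or more in 1 of the stages, 10 of them had a stage ratio above 0 and none reached 1 or −1, with a median of 0.36. Among the higher ratios were 0.97 for Tgfb1i1 (Hic-5, a focal adhesion adaptor), 0.88 for Vcl (vinculin, which ties actin to adhesions) and 0.76 for Flna (filamin A, a cross-linker). Vcl was detected at 100 CPM in 73.4% of adult and 98.6% of pregnancy cells, the clearest of these in detection. Of 11 genes that set light chain phosphorylation, 8 were measured at that level, 0 reached 1 or −1, and the median was −0.06. Among them Ppp1r12a (the targeting subunit of myosin phosphatase, which opposes Mylk) stood at 0.62, Rhoa (the GTPase that restrains the phosphatase) at −0.58, Rock2 at 0.48 and Calm2 at −0.33.

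The SRF pathway was thinly measured. Srf averaged 55.7 CPM over adult and 96.8 CPM over pregnancy cells, a ratio of 0.70, and was detected at 100 CPM in 11.5% and 31.0% of cells. The adult sets differed, with Srf at 34.7 CPM in marked and 85.0 CPM in unmarked cells. Its stage ratio was 1.26 over marked and 0.17 over unmarked cells. Of its coactivators, Mrtfb stood at 138 and 53.2 CPM, a ratio of −1.23, and the remaining 2 were under 50 CPM. Myocd, the coactivator of vascular and visceral smooth muscle, averaged 1.09 CPM over adult and 0.0347 CPM over pregnancy cells, and was chosen for mention after its value was seen. At these levels few reads per cell decide detection.

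Over single cells the members moved together, but loosely. The median Spearman correlation over the 45 pairs was 0.27 in 81 marked cells, 0.30 in 58 unmarked cells and 0.18 in 71 pregnancy cells. For comparison, all pairs were formed among the 2114 genes that averaged 50 CPM or more and had reads in at least 25% of thinned cells in every set. Over these pairs the medians were 0.08, 0.11 and 0.03, and 24, 25 and 22 of the 45 member pairs lay above the 90th percentile of those pairs (0.23, 0.29 and 0.20). These are descriptions, since all cells of a set share a preparation and each pair shares the depth of its cells. Without the cells that carried other lineages, the unmarked median was 0.18 in place of 0.30.

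The pairs with the highest values in all sets centred on Acta2 and Tagln. In every set 9 pairs reached 0.3, and each of them held Acta2 or Tagln: Acta2 with Cnn1, Myh11, Myl9, Tagln and Tpm2, and Tagln with Cnn1, Myh11, Myl9 and Tpm2. The pair Acta2 and Tagln gave 0.60, 0.41 and 0.61 in marked, unmarked and pregnancy cells, and Tagln and Tpm2 gave 0.64, 0.44 and 0.46. Against the mean of the other 9 members, Acta2 gave 0.68, 0.49 and 0.56 and Tagln 0.61, 0.53 and 0.66, while in unmarked cells Tpm2 stood highest, at 0.64. Tagln, the member with the lowest stage ratio, was thus among the 2 most correlated with the rest inside every set.

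Mylk, Actg2, Tpm1 and Cald1 followed the others less closely. Against the mean of the others, Mylk gave 0.27, 0.31 and 0.27, Actg2 0.32, 0.37 and 0.29, Tpm1 0.05, 0.32 and 0.27, and Cald1 0.30, 0.32 and 0.03. Mylk and Cald1 with each other gave 0.23, 0.30 and 0.51, the value in pregnancy being exceeded by 2 of the 45 pairs, while Cald1 with Acta2 gave 0.30, 0.16 and −0.17. In all, 4 pairs were below 0 in at least 1 set, and 3 of them held Cald1. Depth moved with these values: over pregnancy cells, the correlation with assigned reads was −0.30 for Mylk and −0.25 for Cald1, against 0.47 for Acta2 and 0.42 for Tagln. The part of depth in the pairing of Mylk with Cald1 was not tested.

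**Figure D5:**
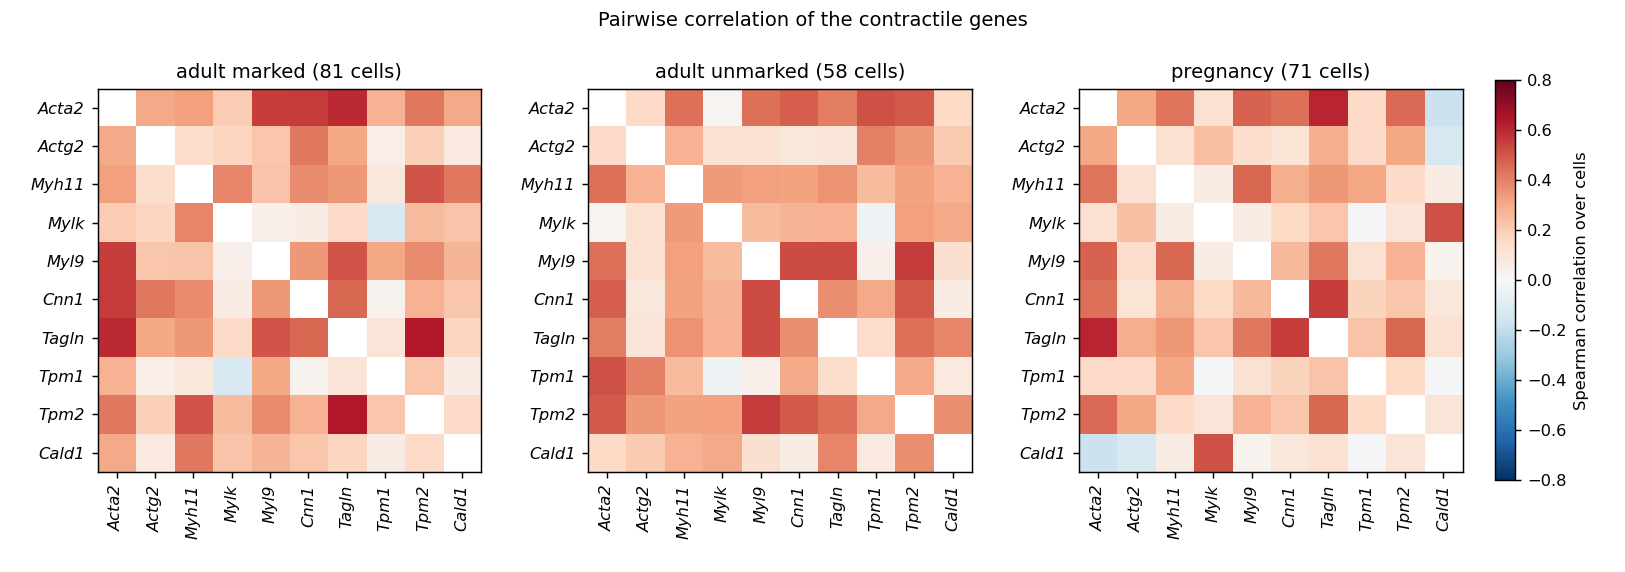
Spearman correlation over cells for each pair of the 10 contractile genes, in marked adult, unmarked adult and pregnancy cells (blank on the diagonal; colour scale from −0.8 to 0.8). The rows of Acta2 and Tagln are mostly red, with 0.60, 0.41 and 0.61 for the pair of them, while Acta2 with Cald1 is at −0.17 in pregnancy. In pregnancy the Cald1 row is pale except for Mylk at 0.51.

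The members' score was also set against other programmes in the same cells. It correlated with the actin-associated list at 0.57, 0.53 and 0.41 in marked, unmarked and pregnancy cells, and with the 8 other basal genes at 0.49, 0.46 and 0.22. With the light chain phosphorylation list it gave 0.02, 0.28 and −0.10. The basal programme itself differed between the stages in both directions: the keratin Krt17 had a stage ratio of −2.81 and the chemokine Cxcl14 one of −1.08, while the helix-loop-helix factor Id4 had 2.41 and Trp63, the basal lineage factor p63, averaged 88.0 CPM over adult and 267 CPM over pregnancy cells. Krt14, a basal keratin detected in 92.8% of adult and 98.6% of pregnancy cells, was at −0.45 although it was among the genes most correlated with the members.

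Among 2104 other genes, the 10 whose levels followed the members' score most closely, ranked by the lowest of the correlations in the 3 sets, were Myl6, Gm10080, Flna, Krt14, Fblim1, Gm5526, Cbr2, Rbpms, Ndufa13 and Postn. Myl6, the essential light chain of smooth and nonmuscle myosin, gave 0.57, 0.65 and 0.58. Gm10080 gave 0.50, 0.61 and 0.64, and its transcript holds a run of 168 bases identical to Myl6, so reads of these genes are not told apart there. Flna gave 0.42, 0.56 and 0.39. Myl6 averaged 302 CPM over adult and 307 CPM over pregnancy cells, a stage ratio of 0.02, so close tracking of the members within sets went with no difference between stages. The 5 genes most unlike the members, ranked by the highest of the correlations in the 3 sets, were Gm21399, the nuclear RNA Malat1 (−0.26, −0.11 and −0.23), Map3k2, Cd44 and Nfia.

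The members were also examined in cells that carried cell cycle genes. At least 3 of 14 cell cycle genes reached 100 CPM in 2 of 81 marked cells, 7 of 58 unmarked cells and 22 of 71 pregnancy cells. In the 22 pregnancy cells the members took a median of 3.87% of reads, against 5.52% in the other 49. Median Tagln was 2939 CPM in the former and 6359.5 CPM in the latter, and median Acta2 was 13971 and 19470.4 CPM. On mean CPM the log2 ratio between these cells was −0.73 for Myl9, −0.52 for Tagln, −0.49 for Myh11 and −0.44 for Acta2, and it was 0 or below for all 10 members, with Cnn1 at −0.00. Their median was −0.32, where the median of 4655 genes was 0.06 and 47.6% were at 0 or below. Over pregnancy cells the score had a correlation of −0.20 with the cell cycle list, against 0.13 in marked and −0.14 in unmarked cells. The groups of cells overlapped, and cell cycle genes are known only by their reads here, with no measure of division. This split was not repeated without the cells that carried other lineages. Cell 71, with 5 luminal genes and a member share of 0.183%, was among the 22 cells. Cell 53, with the highest share (17.9%), was among the 49.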

How the data were processed

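RNA of single cells was measured. The authors deposited raw counts of read pairs for each cell and Entrez gene, and these were the input here. Their methods and the submitters' processing notes name alignment to mm10 with Subread 1.5.0, followed by featureCounts with the RefSeq annotation that comes with it. Molecular identifiers were not part of the protocol, and the strand setting is not given in the sources used here. A table of the whole series that repeats the counts of the single files was not used.

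Of 27179 gene IDs, 25275 matched a RefSeq symbol (GRCm38.p6). After the study's filter, 15 mitochondrial and 124 ribosomal protein genes and IDs without a symbol were left out. Depth ranged from 51464 to 405910 assigned reads per retained cell. No doublet caller was run, and cells with genes of another lineage were kept in the main values. No 2 cells had identical counts.

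CPM, RPKM and ratios were computed from the counts in Python 3.11.15 with numpy 2.4.6, scipy 1.17.1 and pandas 2.3.3, with cells weighted equally. The ratio was tested on simulated data with known fold changes. Shares and counts are given with no test, because each group is 1 sample. Alternatives were another cell filter, detection levels of 10 and 500 CPM, thinning to 50000 reads, pseudocounts of 1 and 100 CPM, means of log2 values, medians, summed reads, edgeR 4.0.16 TMM factors, DESeq2 1.42.0 size factors (both on reads summed per set, for scaling only), totals with all genes or without the members, removal of the highest cell, and Pearson correlation. The limit of 30% mitochondrial reads, the count of members with medians, and the adult ratios and family shares without cells of other lineages or without the 2 unmarked cells richest in Cnn1 were chosen after seeing the data. The members, the gene lists and these choices were made with earlier results of these data known. Named are all members, at most 4 genes of a list (mean of at least 50 CPM, largest absolute ratio), the 10 most and 5 least similar genes, and cells that are the highest or lowest of a set; other names are stated as chosen after their values were seen. Shared stretches and exon overlaps were found in GENCODE M21 transcripts.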

Additional observations from a re-analysis of the deposited data

Results flagged for a closer look

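The cells left out for low depth also held reads of the contractile genes. In 98 adult cells below the limits, with a median of 6386 assigned reads and a median mitochondrial share of 49.7%, the 10 members took 26119 of 1171743 reads, or 2.23% (exact interval 2.20 to 2.26%). In 4 pregnancy cells below the limits, with a median of 22659 assigned reads and 74.8% mitochondrial reads, they took 2474 of 93619 reads, or 2.64% (2.54 to 2.75%). Both shares lie above the limit that a count of 0 allows (3 counts in the total, 0.000256% and 0.00320%) and below the shares of the retained cells of the same stage, 3.738% and 5.803%. These libraries entered no comparison.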

How the results depend on the processing

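The share of reads in the 10 members (3.74% in adult and 5.80% in pregnancy cells) was 3.86 and 5.83% with at least 100000 reads and 1500 genes, 3.92 and 5.90% without cells with genes of other lineages, 3.12 and 4.30% with all genes in the total, and 3.76 and 6.25% in cells under 30% mitochondrial reads. The share of cells with at least 8 members was 61.2% of adult cells at 500 CPM, 95.7% at 10 CPM and 92.1% with 1 read after thinning, against 84.2%. In pregnancy cells it was 100% at 10 CPM, after thinning, without other lineages and under 30% mitochondrial reads, against 98.6%. The number of members at a log2 stage ratio of 1 or more was 6 with averaged log2 values, 4 with medians over cells and 2 to 3 under the other 12 alternatives, while the share of all genes at 1 or more was 46.5% with medians and ran from 1.93 to 18.3% under the rest. The median correlation was 0.18 in unmarked cells without other lineages, and with Pearson's r on log2 values 0.43 in unmarked and 0.35 in pregnancy cells. The cause of these shifts was not tested. Of 140 ratios of single members under alternatives, 130 stayed within the limits set for a shift, 10 moved and 0 of those called at 1 changed sign.

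No label ties a cell to an animal, so the spread between animals is unknown. For Actg2, with no read in 34.5% of adult cells, and for Srf, Mrtfb and Myocd, depth limits detection per cell. No paired analysis was possible because the result comes from no test and each group is 1 sample.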
